A study of Mus musculus with 6 samples.

Results

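Mitochondrial ribosomal protein genes were taken from the count table as every symbol made of Mrpl or Mrps, a number and at most 1 trailing letter, which found 78 of 49568 genes. All 78 are protein-coding genes of the nucleus in the GENCODE M21 annotation. By their known positions 51 encode proteins of the large mitoribosomal subunit and 26 encode proteins of the small subunit. Mrps36 was placed in neither, because its product is now known as a component of the 2-oxoglutarate dehydrogenase complex. The names Mrps18a and Mrps30 are misleading in the same way: their products sit in the large subunit and were counted there.

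The RNA came from MC/9, an established mouse mast cell line. For the rPTH group it was collected after culture together with 7F2, an established mouse osteoblast line. The 3 libraries of the rPTH group had received rPTH, read here as a parathyroid hormone preparation, at 10 nM for 24 h. The 3 libraries of the control group carry no agent in their labels, which do not say whether these cells also grew on osteoblasts. The labels do not state that replicates were separate cultures. The p-values therefore speak of the spread among these libraries alone, and that spread may be technical.

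Mitochondria translate the few proteins encoded in their own genome, all of them subunits of the oxidative phosphorylation complexes, on a ribosome of their own. Its ribosomal RNAs are transcribed inside the organelle, whereas each of its proteins is encoded in the nucleus, made in the cytosol and imported. Mitoribosomes are richer in protein than bacterial ribosomes: some proteins have bacterial counterparts, and others occur only in mitochondria. Mast cells, which store histamine and proteases in granules, use mitochondria for respiration and calcium handling.

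The promoters of these genes were searched for known motifs, and their part in the levels below was not tested. A window from 250 bases before to 50 bases after the start was at hand for 69 members (RefSeq, GRCm38.p6). Both strands were searched for the site of nuclear respiratory factor 1 (NRF1, a palindromic GC-rich core), the ETS site bound by GABP (CCGGAAG) and the YY1 site (AAGATGGCG). All are factors known for promoters of nuclear genes of mitochondria. A gene was counted when any of its windows held the letters. The NRF1 motif stood in 13 members (18.8%), against 5.19% of 27025 genes, which were not limited to expressed ones. The ETS letters stood in 26 (37.7%, against 9.93%) and the YY1 letters in 8 (11.6%, against 1.64%). In all, 41 members had at least 1 of the motifs and 28 had none. Mrpl17, Mrpl57, Mrps21 and Mrps26 held both NRF1 and ETS letters, and Mrps18a and Mrps27 held both ETS and YY1 letters.

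The 250 bases before the start are printed, 5′ to 3′ on the strand of the gene, for 5 members chosen for their values. Mrps21 and Mrpl12 had the highest levels per length, Mrpl34 was among those whose groups did not overlap, Mrps18a is the large-subunit protein with a small-subunit name, and Mrps2 was the member that varied least with control 1. Capitals mark a match of 1 of the motifs on either strand within these 250 bases: NRF1 in Mrps21 and Mrpl12, ETS in Mrpl34 and Mrps18a, and none in Mrps2. The ETS letters of Mrps21 and the YY1 letters of Mrps18a do not lie wholly within the printed stretch and are not marked.
Mrps21, chr3:95871515-95871764, minus strand: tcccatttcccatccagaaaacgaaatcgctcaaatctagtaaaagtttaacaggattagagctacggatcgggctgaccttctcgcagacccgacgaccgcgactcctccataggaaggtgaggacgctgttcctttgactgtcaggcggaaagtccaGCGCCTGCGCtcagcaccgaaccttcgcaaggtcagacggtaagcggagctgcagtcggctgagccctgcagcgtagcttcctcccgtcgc
Mrpl12, chr11:120484387-120484636, plus strand: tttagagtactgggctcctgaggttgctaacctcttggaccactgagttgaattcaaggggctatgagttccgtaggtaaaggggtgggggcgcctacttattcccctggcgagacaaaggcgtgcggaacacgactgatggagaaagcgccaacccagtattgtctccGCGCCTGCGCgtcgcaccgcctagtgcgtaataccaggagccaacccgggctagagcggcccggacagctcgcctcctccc
Mrpl34, chr8:71464676-71464925, plus strand: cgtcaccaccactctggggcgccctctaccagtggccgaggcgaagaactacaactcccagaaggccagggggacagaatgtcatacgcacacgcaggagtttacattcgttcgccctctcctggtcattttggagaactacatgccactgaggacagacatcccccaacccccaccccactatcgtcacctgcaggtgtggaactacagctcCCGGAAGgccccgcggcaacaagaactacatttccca
Mrps18a, chr17:46110754-46111003, plus strand: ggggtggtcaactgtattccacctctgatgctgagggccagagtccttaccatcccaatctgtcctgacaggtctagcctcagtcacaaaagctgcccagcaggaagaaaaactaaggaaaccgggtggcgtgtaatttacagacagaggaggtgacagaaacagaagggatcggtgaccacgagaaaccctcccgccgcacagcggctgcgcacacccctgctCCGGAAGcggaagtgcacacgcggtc
Mrps2, chr2:28467816-28468065, plus strand: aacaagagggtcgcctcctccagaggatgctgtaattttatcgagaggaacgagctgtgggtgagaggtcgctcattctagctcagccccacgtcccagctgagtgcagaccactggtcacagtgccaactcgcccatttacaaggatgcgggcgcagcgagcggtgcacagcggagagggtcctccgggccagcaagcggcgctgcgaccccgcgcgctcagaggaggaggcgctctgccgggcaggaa
A match is a run of letters and not a measured binding site. Mrps11 and Mrpl46, 1 of them in the small and the other in the large subunit, lie head to head on chromosome 7 with starts 42 bases apart (78783131 and 78783089), so that their windows share 141 bases.

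Total counts ran from 22282095 to 33577977 per library. The tested members had 100 to 3730 counts in a library, with a median of 1080. Counting error in the rPTH libraries had a median of 2.94%, and 4 of the 77 members varied less than their counting error there. The mast cell label was checked against 15 marker genes. Fcer1a, a chain of the IgE receptor, had at least 32783 counts in every library. Cpa3, a granule protease, had at least 44512, whereas the chymase Mcpt4 had at most 4. The markers did not move alike in control 1. After TMM scaling it was the highest library for 9 of the 14 tested markers (64.3%), against 39.3% of all tested genes. Kit had 5501 counts there and 13886 to 20104 in the others, and Il1rl1 had 10577 against 22922 to 35611. All 15 summed to 8280, 8550 and 8590 CPM (counts scaled by the library total) in the controls. With rPTH the sum was 6850, 9050 and 8680 CPM. Markers of osteoblasts and stroma were also present. Their summed level was 2570, 4230 and 3910 CPM in control 1, 2 and 3. In rPTH 1, 2 and 3 it was 5860, 4630 and 4980 CPM. Every rPTH library thus held more of them than every control, and the part of this in the results below was not tested. In such bulk samples fewer cells of a type and less RNA per cell cannot be told apart. Control 1 stood apart from the other 5 libraries, with a TMM scaling factor of 0.81 against 1.03 to 1.06, and each result is therefore also given without it.

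The mitoribosomal transcripts were present across the set at moderate levels. Of the 78 members, 77 passed the low-count filter, along with 16696 genes in all. Mrpl53 did not pass: it had 1 count in control 3 and 0 in each other library. Reads could also be ascribed to Gm42688, a gene on the same strand that covers 88% of the exon bases of Mrpl53 and had 12, 23 and 30 counts in the controls and 36, 18 and 31 with rPTH. The sources used here do not give how the counting treated such overlaps, and the level of Mrpl53 is uncertain.

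Mean levels over the 6 libraries ran from 5.68 to 91.2 CPM scaled by TMM factors, with a median of 41.2 CPM. To compare genes, levels were divided by the length of the union of all annotated exons. On this scale the median of the large subunit was 17.2 CPM per kb (4.53 to 59.5, 50 genes) and that of the small subunit 12.8 CPM per kb (2.75 to 74.4, 26 genes). The ranges covered each other almost entirely. Mrps21, a small-subunit protein with a bacterial counterpart, had the highest level per kb (74.4). It was followed by Mrpl12 (59.5), the stalk protein that also binds the mitochondrial RNA polymerase, and Mrpl54 (58.7), a large-subunit protein specific to mitochondria. Mrpl12 and Mrpl54 differed by less than their spread over libraries.

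The lowest levels per kb were those of Mrps34 (2.75), Mrps10 (4.2) and Mrpl48 (4.53), 2 small-subunit proteins and 1 of the large subunit. This order depended on which exons were counted as the gene. Mrps21, Mrps10 and Mrpl48 also have near-identical pseudogene copies, given at the end, which leave their levels uncertain. Per kb of the shortest principal transcript Mrps21 again came first (136) and Mrps34 last (6.19), but Mrps10 reached 33.3. Mrpl33, picked out here after its values were seen, had 6.89 per kb of union exons and 106 per kb of that transcript. Across the 77 members the 2 scales had a rank correlation of 0.695, as a description. Mrps34 had 196, 189 and 100 counts in the controls and 156, 121 and 144 with rPTH. Its exons overlap Nme3 on the same strand over 37% of their bases and Mapk8ip3 on the other strand over 63.4%, and Nme3 is listed at 0 in all 6 libraries.

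**Figure D1:**
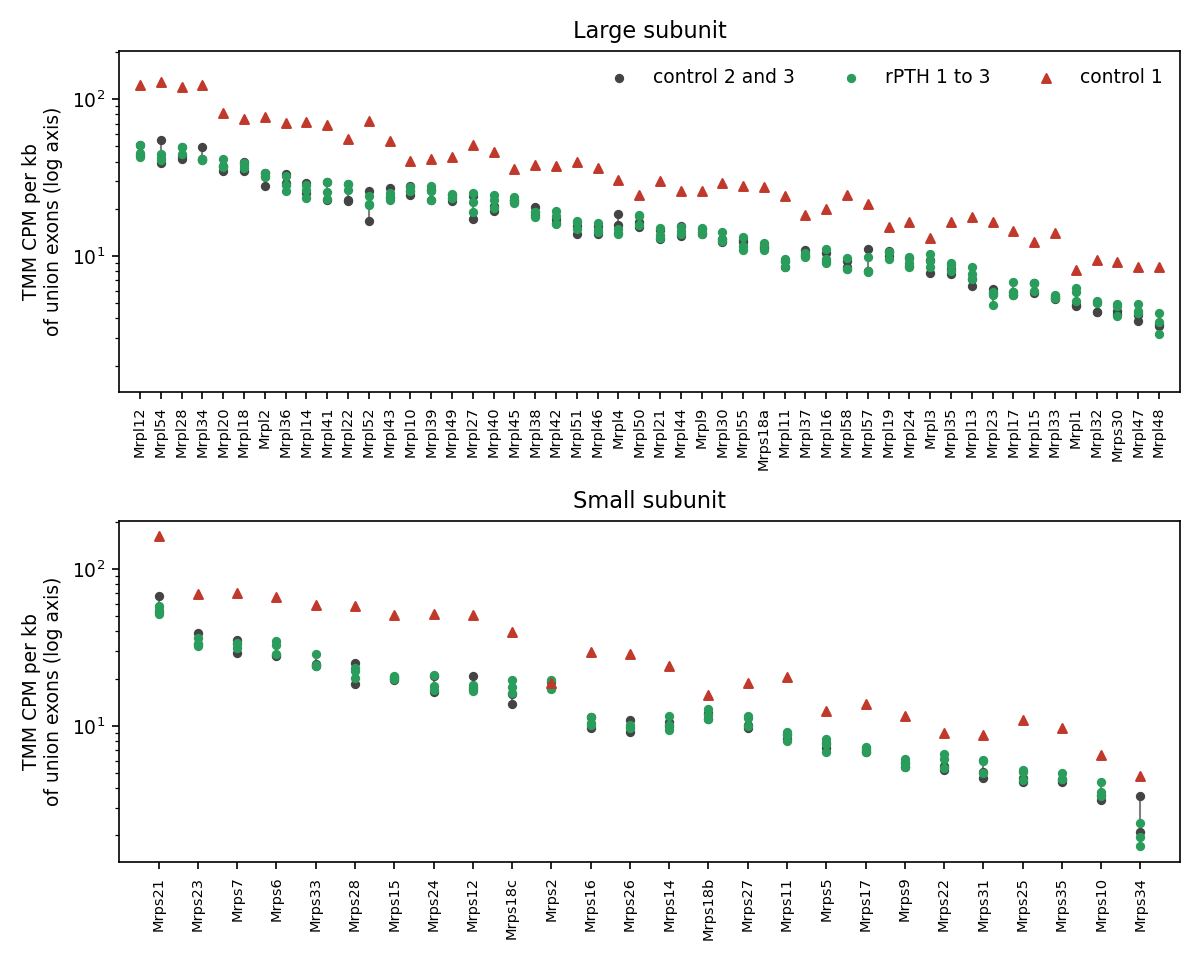
Level of each tested member of the large subunit (top) and small subunit (bottom) in TMM-scaled CPM per kb of union exons on a log axis, ordered by mean level; each point is 1 library, triangles mark control 1 and grey lines join the range of the other 5 libraries. Control 1 lies above the other libraries in every column except that of Mrps2, and Mrps21 has the highest mean level.

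The summed level of all members was 4920, 3020 and 2740 CPM in the controls and 2940, 3150 and 2870 CPM with rPTH. The group values were 3560 ± 1190 and 2990 ± 143 CPM (SD, n = 3 each), a ratio of 0.838. The groups overlapped: control 1 was the highest library and control 3 the lowest, with the 3 rPTH libraries between control 1 and control 3. Without control 1 the ratio was 1.04.

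Both subunits followed the same course. The large subunit summed to 3380, 2080 and 1870 CPM in the controls and to 2010, 2170 and 1970 CPM with rPTH. The small subunit summed to 1500, 925 and 848 CPM in the controls and to 914, 958 and 880 CPM with rPTH. The ratio of the large to the small subunit was 2.25, 2.25 and 2.21 in the controls and 2.20, 2.26 and 2.24 with rPTH. It stayed within this band in control 1 as well, where each sum was 1.68 times (large) or 1.66 times (small) the mean of the other 5 libraries.

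**Figure D2:**
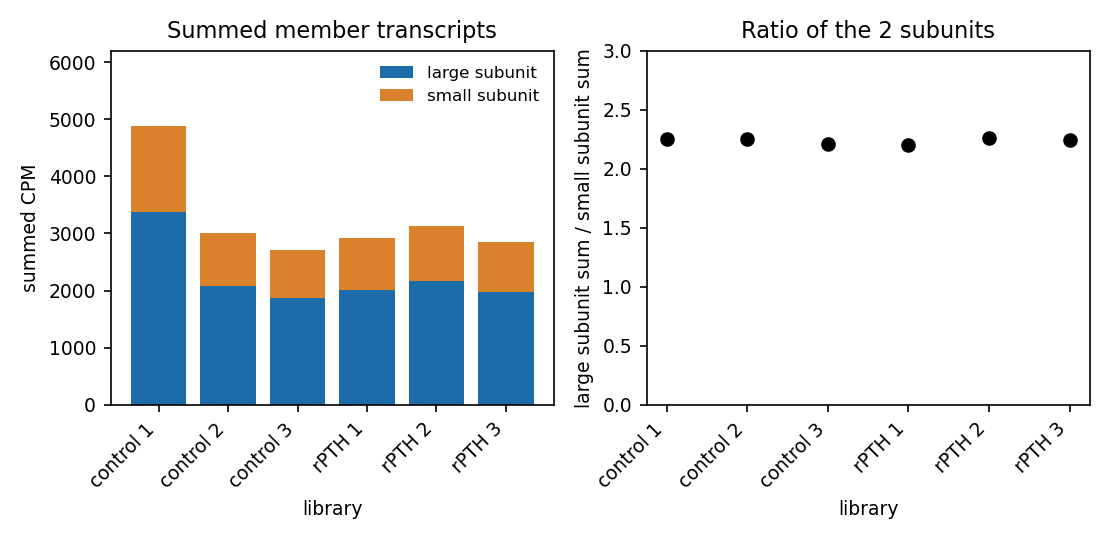
Left, summed CPM of large-subunit (blue) and small-subunit (orange) transcripts in each library, with a large-subunit sum of 3380 CPM in control 1 and 1870 to 2170 CPM in the others. Right, the large-subunit sum divided by the small-subunit sum in each library, which runs from 2.20 to 2.26.

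The study's question was what rPTH changes in mast cells. No member passed an adjusted p of 0.05 in edgeR's quasi-likelihood test (adjusted p 0.619 to 0.934 over the 77 members), and neither did any of the 16696 tested genes, a background of 0%. No member was below an unadjusted p of 0.05 either, against 7.87% of all tested genes (1314). By direction the background was 5.89% lower and 1.98% higher. With 1 library left out, members under that p numbered 17 without control 3 (9.5% of all genes), 2 without control 1 (12.4% of all genes) and 1 without control 2 (12% of all genes).

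The fitted log2 fold change, rPTH minus control, was nevertheless below 0 for all 77 members, against 58.5% of all tested genes and 51.5% of protein-coding genes. The median was -0.45 over the members, -0.45 for the large subunit and -0.44 for the small subunit, and -0.09 over all tested genes. Values ran from -0.80 in Mrpl54 to -0.03 in Mrps2. The size rested on control 1. Without that library the median was 0.02, with 27 members below 0 and 50 above, where 43.4% of all genes were above 0. With any other single library left out the median lay below 0, at -0.635 without control 2 and -0.541 without control 3.

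Groups that did not overlap were found for 2 of the 77 members, Mrpl4 and Mrpl34, both lower with rPTH, against a background of 8.46% of all tested genes for that direction (8.35% for higher, 16.8% for either). Mrpl4, a large-subunit protein known at the wall of the peptide exit tunnel, had 80.1, 48.6 and 41.2 CPM in the controls and 36.3, 36.5 and 39.1 CPM with rPTH. Its highest rPTH library lay just under its lowest control. The log2 fold change was -0.60 ± 0.26 (SE; edgeR adjusted p = 0.619), and without control 1 it was -0.28 ± 0.10 (edgeR adjusted p = 0.4).

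Mrpl34, a short and basic large-subunit protein with a bacterial counterpart, had 74.4, 30.0 and 25.4 CPM in the controls and 25.2, 25.1 and 25.0 CPM with rPTH. Its 3 rPTH libraries had a coefficient of variation of 0.488%, the smallest of any member, and control 3 lay barely above them. Counting error alone was 4.13% for Mrpl34 in control 3 and 3.43% on average in the rPTH libraries, more than the gap between control 3 and the rPTH group. The log2 fold change was -0.79 ± 0.40 (SE; edgeR adjusted p = 0.628) and fell short of the threshold without control 1 too (-0.16 ± 0.10). The direction of the members without overlap depended on the libraries. Their number depended on the libraries and the processing. It was 25, all lower, without control 3 (all genes 16.7% lower), and 13 in either direction without control 1. It was 7, all lower, without rPTH 2 (9.09% of members, all genes 15.3% lower) and 4, all lower, without rPTH 1 (5.19%, all genes 10.6% lower). No member was left without the low-count filter (all genes 4.43% lower).

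Left out of the fit, control 1 took the common direction with it. Of the 13 members whose groups then did not overlap, 10 were higher with rPTH (all genes 15.9%) and 3 lower (all genes 15.5%). Mrpl22, a large-subunit protein near the exit of the peptide tunnel, had 54.4, 22 and 22.4 CPM in the controls and 28.2, 28.4 and 25.9 CPM with rPTH. Its log2 fold change was -0.26 ± 0.37 (SE) with 3 controls and 0.30 ± 0.09 without control 1 (edgeR adjusted p = 0.4). It was named after its values were seen. Mrpl22 and Mrpl4 were the members under an unadjusted p of 0.05 in that fit, 2 of 77, against 12.4% of all genes (4.46% higher and 7.95% lower).

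**Figure D3:**
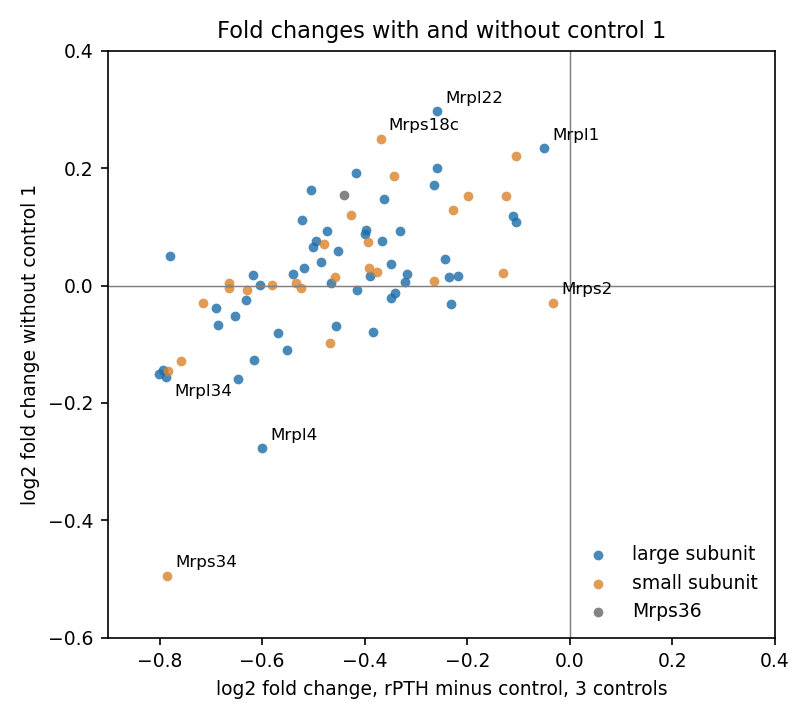
Fitted log2 fold change (rPTH minus control) of each tested member with all 3 controls (x axis) and without control 1 (y axis), coloured by subunit. Every point lies left of 0 on the x axis, between -0.80 and -0.03, and 50 of 77 lie above 0 on the y axis.

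The difference among libraries was thus mainly that of control 1. It was the highest library for 76 of 77 members (98.7%), against 39.3% of all tested genes and 42.3% of protein-coding genes. The members were not alone in this: the share was 98.8% for cytosolic ribosomal protein genes and 98.7% for nuclear-encoded respiratory chain subunits. The ratio of control 1 to the median of the other 5 libraries, in TMM-scaled CPM, had a median of 2.27 and ran from 1.08 in Mrps2 to 3.37 in Mrpl52. The medians of both subunits were close, 2.22 for the large and 2.30 for the small. In the other 5 libraries the members had a median coefficient of variation of 7.90%, against 12.1% over all tested genes. It was 9.73% over protein-coding genes and 8.54% over the respiratory chain subunits. Within the rPTH group the members had 7.32%, against 9.79% over all tested genes and 8.72% over protein-coding genes. Within the controls they had 51%, against 30.5% and 25.4%. Genes were not matched for count level in these comparisons of variation.

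**Figure D4:**
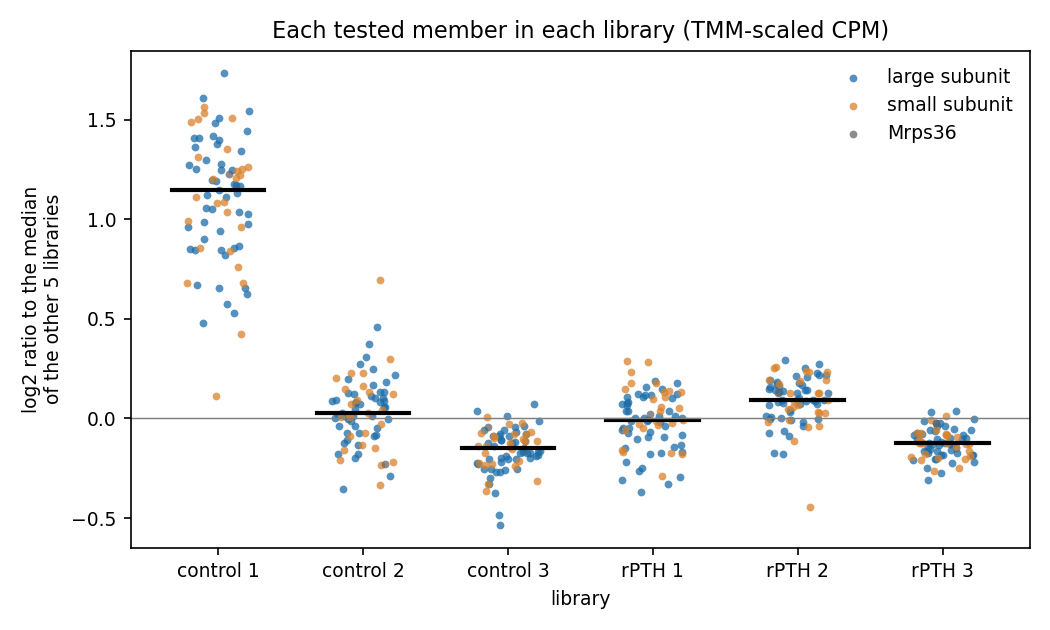
Log2 ratio of each tested member in each library to its median over the other 5 libraries (TMM-scaled CPM); points are genes, coloured by subunit, and black lines are medians. The median is 1.15 in control 1 and lies between -0.15 and 0.09 in each other library.

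The largest ratios were those of Mrpl52, Mrpl54, Mrps21, Mrpl34 and Mrps26. Mrpl52, a large-subunit protein specific to mitochondria, had 80.1, 28.8 and 18.4 CPM in the controls and 26.9, 23.8 and 23.4 CPM with rPTH. Mrpl54 had 107, 45.3 and 32.5 CPM in the controls and 34.8, 37.1 and 34 CPM with rPTH. In both genes control 3 was the lowest library and control 1 the highest, so the rPTH values lay inside the range of the controls.

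The smallest ratios were those of Mrps2, Mrps18b, Mrpl3, Mrpl19 and Mrpl50. The ratio of Mrps18b is uncertain because of a near-identical copy, given at the end. Mrps2, a small-subunit protein with a bacterial counterpart, had 55.0, 55.8 and 50.9 CPM in the controls and 57.6, 50.7 and 49.8 CPM with rPTH. It was the member in which control 1 was not the highest library, and its log2 fold change was -0.03 ± 0.15 (SE; edgeR adjusted p = 0.929). Mrpl3, at the core of the large subunit, had 86.2, 62.6 and 51.8 CPM in the controls and 61.7, 68.5 and 56.3 CPM with rPTH.

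Across the 77 members the log2 ratio of control 1 fell with coding length, with r = -0.614 and rho = -0.633. The ratio had a median of 2.40 in the 39 members at or under the median coding length of 588 bases and of 1.97 in the 38 longer ones. For transcript length r was -0.378 and for GC content 0.345, and for the mean level it was -0.0174. Over 12271 protein-coding genes r had the same signs, at -0.650 for transcript length and 0.375 for GC content. Coding length was not examined over those genes. All points share the same 6 libraries, and these correlations across genes are descriptions without a test. With each library's trend on transcript length and GC removed, the median log2 fold change moved from -0.45 to -0.13, with 64 of 77 members below 0, against 59.2% of all genes. Members whose groups did not overlap are not counted for that fit. By promoter motif, as a description without a test, the median of the ratio was 2.27 with and without the NRF1 motif, 2.42 and 2.13 with and without ETS letters, and 2.25 and 2.27 with and without YY1 letters.

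**Figure D5:**
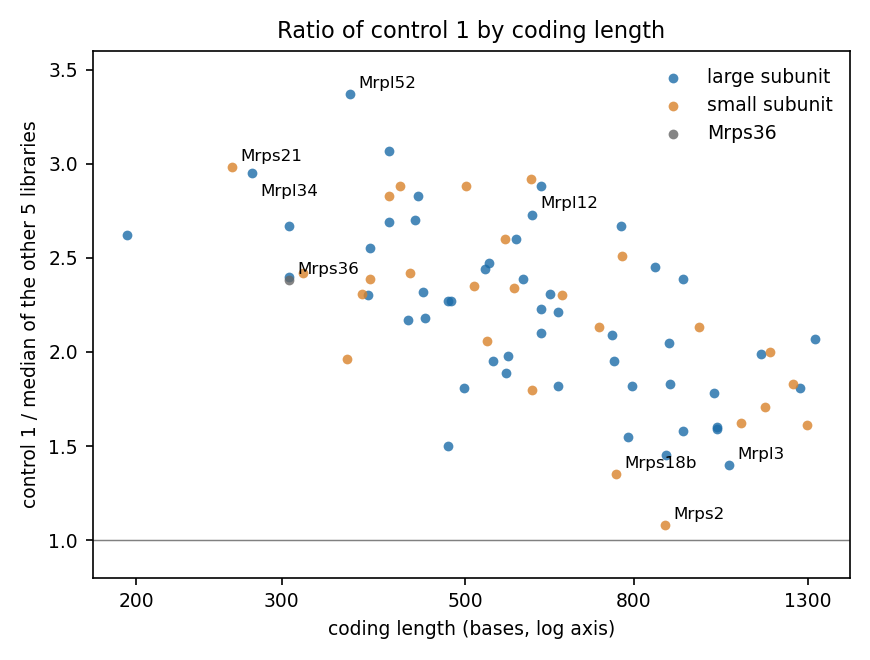
Level in control 1 divided by the median of the other 5 libraries (TMM-scaled CPM) against coding length on a log axis, with 1 point per tested member, coloured by subunit. Mrps21 and Mrpl34, with short coding sequences, have ratios of 2.98 and 2.95, and Mrpl3 and Mrps2 have 1.40 and 1.08.

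Members of known role were examined next. The stalk of the large subunit, which recruits translation factors, is formed by Mrpl12 on the base protein Mrpl10, with Mrpl11 beside it. Mrpl12 had 189, 77.9 and 67.8 CPM in the controls and 69.2, 77.9 and 65.4 CPM with rPTH. Mrpl10 had 69.2, 47.4 and 41.6 CPM in the controls and 44.5, 46.8 and 44.7 CPM with rPTH, and Mrpl11 had 78.0, 30.0 and 27.6 against 30.1, 30.7 and 27.5 CPM. The rPTH values of Mrpl10 lay between control 3 and control 2, and those of Mrpl12 and Mrpl11 lay in or close to that range.

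Mrpl1, of the opposite stalk, had 35.1, 20.6 and 21.1 CPM in the controls and 25.2, 26.8 and 22.1 CPM with rPTH. Its rPTH libraries lay above control 2 and control 3 and below control 1, and its log2 fold change was -0.05 ± 0.25 (SE) with 3 controls and 0.23 ± 0.11 without control 1. Mrpl2, a core protein near the site of peptide bond formation, had log2 fold changes of -0.50 ± 0.38 and 0.07 ± 0.10 in the same fits.

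Mrpl44, which resembles ribonuclease III, had 42.5, 25.4 and 21.9 CPM in the controls and 22.8, 25.3 and 23.8 CPM with rPTH. Mrpl45, which ties the mitoribosome to the inner membrane, had 92.7, 58.7 and 57.1 CPM in the controls and 61.5, 58.9 and 56.6 CPM with rPTH. Mrpl58, a peptidyl-tRNA hydrolase built into the large subunit, had 82.1, 31.1 and 28.5 CPM in the controls and 27.5, 32.5 and 27.7 CPM with rPTH. In each of them control 1 alone stood above the rPTH libraries by more than the spread among the other 5.

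In the small subunit, Mrps12, at the decoding site, had 53.1, 21.7 and 17.9 CPM in the controls and 18.9, 18.4 and 17.4 CPM with rPTH. Mrps7, of the head, had 146, 73.3 and 60.0 CPM in the controls and 68.7, 70.3 and 64.6 CPM with rPTH. Mrps16 had 85.0, 32.7 and 27.9 CPM in the controls and 28.9, 32.8 and 30.0 CPM with rPTH, and Mrps22, specific to mitochondria, 35.9, 22.2 and 20.8 against 24.7, 26.3 and 21.5 CPM. The log2 fold change lay between -0.76 ± 0.41 in Mrps12 and -0.13 ± 0.24 in Mrps22 (SE), and edgeR's adjusted p was at least 0.628 in these 4 genes.

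Mrps34, another small-subunit protein specific to mitochondria, had 9.93, 7.32 and 4.33 CPM in the controls and 4.95, 3.51 and 4.04 CPM with rPTH. Its log2 fold change of -0.79 ± 0.34 (SE; edgeR adjusted p = 0.619) was followed by -0.49 ± 0.29 without control 1, the lowest value of any member in that fit. Control 3 lay among the rPTH libraries, and the overlap with neighbouring genes given above applies.

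The paralogs Mrps18a, Mrps18b and Mrps18c were set side by side. Mrps18c, the small-subunit protein closest to its bacterial relative, had 42.4, 14.9 and 17.1 CPM in the controls and 18.9, 21.1 and 17.5 CPM with rPTH. Mrps18a, of the large subunit, had 101, 42.3 and 41.2 CPM in the controls and 44.9, 43.5 and 40.5 CPM with rPTH. Mrps18b, of the small subunit, had 32.8, 25.1 and 23.2 CPM in the controls and 26.7, 24.3 and 23.0 CPM with rPTH. The ratio of control 1 to the other libraries was 2.42, 2.39 and 1.35 in the order Mrps18c, Mrps18a and Mrps18b. That of Mrps18b is uncertain, because its near-identical copy Gm13552 had 74.8% of its number of counts. Mrps18a was the most abundant of the 3 per kb of principal transcript (59.2, against 34.5 for Mrps18c and 24.0 for Mrps18b), whereas per kb of union exons Mrps18c came first (20.4, 14.2 and 12.4 for Mrps18c, Mrps18a and Mrps18b).

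Mrps30, of the large subunit, had 61.2, 28.4 and 29.6 CPM in the controls and 32.2, 32.7 and 27.5 CPM with rPTH. Mrps36 had 49.3, 17.9 and 20.4 CPM in the controls and 21.1, 22.7 and 20.7 CPM with rPTH. Both had control 1 highest, with ratios of 2.07 and 2.38, so the symbol exceptions had the same course as the mitoribosome genes.

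Genes that serve the mitoribosome were listed beside it. Each list is given by counts and medians, which hold no test of the list. Over all tested genes 58.5% were below 0. In edgeR 7.87% of all tested genes were under an unadjusted p of 0.05 (5.89% lower). Of 5 further subunits with other symbols, 4 were below 0 and 1 above, with a median log2 fold change of -0.54 that became -0.03 without control 1. Gadd45gip1, also of the large subunit, had -0.63 ± 0.36 (SE) and Ptcd3, of the small subunit, 0.14 ± 0.16. Of 26 assembly factors 23 were below 0 (median -0.24, and -0.04 without control 1). Mrm1, which methylates the large mitochondrial ribosomal RNA, was below an unadjusted p of 0.05 (16.2, 11.8 and 11.3 CPM in the controls, 9.30, 9.95 and 8.36 CPM with rPTH; edgeR adjusted p = 0.619). Gtpbp10, a GTPase of large-subunit assembly, had a log2 fold change of 0.16 ± 0.18 (SE).

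Of 20 mitochondrial tRNA synthetases 15 were below 0 (median -0.14, and 0.01 without control 1). Tars2, for threonine, had -0.29 ± 0.18 and Wars2, for tryptophan, 0.20 ± 0.19 (log2 fold change, SE). Of 19 translation factors 11 were below 0 (median -0.12, and 0.07 without control 1). Cox14, which supports the synthesis of a cytochrome oxidase subunit, had -0.72 ± 0.39 and Pdf, the mitochondrial peptide deformylase, 0.95 ± 0.46, at 0.216 to 0.981 CPM. Of 16 genes of mitochondrial transcription and biogenesis 11 were below 0 (median -0.11, and -0.03 without control 1). Esrra, a nuclear receptor of energy metabolism, had -0.35 ± 0.22 and Gabpa, the DNA-binding chain of GABP, 0.37 ± 0.24. None of these lists held a gene past edgeR's adjusted p of 0.05. Mrm1 was the only gene in them under an unadjusted p of 0.05, against 7.87% of all tested genes.

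Other ribosomal and mitochondrial transcripts were set beside the members in each library. Cytosolic ribosomal proteins had 21.7, 18.7 and 17.7 times the summed CPM of the members in the controls and 16.4, 18 and 17.5 times with rPTH. All 80 tested cytosolic ribosomal protein genes were below 0, with a median log2 fold change of -0.66 that became -0.06 without control 1. Nuclear-encoded subunits of the respiratory chain had 3.17, 3.25 and 3.20 times the members' sum in the controls and 2.90, 3.21 and 3.17 times with rPTH. Of 76 tested, 73 were below 0 (median -0.60, and -0.02 without control 1).

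Messenger RNAs encoded in the mitochondrial genome, which the mitoribosome translates, did not follow the members. Their sum was 7850, 18900 and 27000 CPM in the controls and 28600, 10300 and 25700 CPM with rPTH. It was lowest in control 1, where the members were highest, and next lowest in rPTH 2. The 2 mitochondrial ribosomal RNAs summed to 552, 792 and 1160 CPM in the controls and to 1170, 534 and 1060 CPM with rPTH. In relation to the members' sum, mitochondrial messenger RNA ran from 1.59 in control 1 to 9.86 in control 3, so the spread within the controls covered that of the rPTH group (3.26 to 9.70).

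In the authors' deposited table, 75 of 77 members had a log2 fold change below 0 and 2 had one above 0, with values from -0.59 to 0.04 and a median of -0.29. Mrps34 had the lowest p-value there, and the adjusted p-values of DESeq2 ran from 0.441 to 0.990.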

How the data were processed

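RNA of 6 libraries, 3 per group, was sequenced. The authors deposited whole-number counts per gene, not normalized, and these were tested here. The authors also deposited their own comparison, with a baseline signal, log2 changes, a Wald score and p-values per gene, which was quoted only as theirs. The submitters' processing notes name Trimmomatic 0.36, STAR 2.5.2b, Subread 1.5.0p3, DESeq2 1.12.4 and R 3.3.0, with the builds GRCm38.p5 and mm9. Which annotation the counts rest on, the strand setting and the handling of overlaps are not given in the sources used here; overlapping genes and genes with near-identical copies are therefore uncertain.

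Genes were tested with edgeR 4.0.16 (R 4.3.3): filterByExpr with a minimum count of 10, TMM factors, robust quasi-likelihood fit over the whole table, Benjamini-Hochberg adjustment, threshold 0.05. The procedure was tested on simulated data. SE is the size of the log2 fold change divided by the square root of F. Levels are CPM scaled by TMM factors; sums are in plain CPM. Lengths, exons and copies came from GENCODE M21 (GRCm38), and copies were found with blastn 2.17.0. A count of 0 allows up to 3 counts, 0.0893 to 0.135 CPM by library, and covers counting error only.

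Named are members whose groups did not overlap (at most 10 per direction), the 3 highest and 3 lowest per kb, landmarks of known role, and the 5 largest and 5 smallest deviations of control 1; for each companion list, the gene with the smallest p per direction. The members, lists and rules were chosen with earlier results of these data known. Alternatives were RLE and upper-quartile factors, other low-count filters, DESeq2 1.42.0, limma-voom (limma 3.58.1), a replicate block, a loess offset on length and GC (span 0.3), protein-coding genes alone, and leaving out each library. Principal transcripts as the length scale were chosen after seeing the data. The NRF1 motif was searched with 1 free base. Protein sequences were not used here.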

Additional observations from a re-analysis of the deposited data

How the results depend on the processing

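DESeq2 called 5 genes at an adjusted p of 0.05 and edgeR and limma-voom none, and no alternative called a member. Members at an unadjusted p of 0.05 numbered 2 with DESeq2 (all genes 11%) and 2 with protein-coding genes alone (all genes 5.05%), Mrpl4 and Mrps34 in each. They numbered 0 to 17 with 1 library left out, 17 of them without control 3 (all genes 9.5%). All tested genes at that p numbered 2377 without the low-count filter, 863 with limma-voom, 851 with the offset on length and GC, 622 with protein-coding genes alone, and 272 to 2165 with 1 library left out. The replicate numbers did not pair the libraries (r of same-numbered deviations -0.127, -0.339 and 0.134); with the replicate block 525 genes were under that p, and 529 with the block and the offset.

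Members without overlap, all lower, numbered 1 with RLE factors (all genes 6.49% lower), 4 with upper-quartile factors (8.65%), 0 without the filter (4.43%) and 4 with protein-coding genes alone (7.53%). With 1 library left out they numbered 2 to 25, in both directions without control 1. For the offset no such count is given, because its rescaled levels and its fold changes did not match. The median log2 fold change of the members was -0.13 with the offset (64 below 0) and -0.09 with the block and the offset (56 below 0). The cause was not tested. The median of all tested genes was 0.00125 with protein-coding genes alone and -0.128 to 0.0111 with 1 library left out.

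With all libraries the members' median lay between -0.45 and -0.09 under every alternative. With 1 library left out it ran from -0.635 to 0.0179 (large subunit -0.634 to 0.0185, small subunit -0.625 to 0.0107), members below 0 from 27 to 77, and the ratio of summed CPM from 0.752 to 1.04 (large 0.75 to 1.04, small 0.756 to 1.04). Without control 1 the medians and ratios took their upper ends and the count below 0 its lower end.

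Of 480 values of 30 named members under alternatives, 49 changed sign, none past the threshold, and 19 of these were without control 1. Above 0 were Mrpl1 (0.024 with RLE factors, 0.104 without the filter, 0.0242 with DESeq2, 0.000586 with limma-voom) and Mrps2 (0.0256, 0.0919 and 0.0253 with RLE factors, without the filter and with DESeq2; 0.0132 with the offset, 0.0151 with the block and the offset). Without the filter Mrpl3 had 0.0419, Mrpl50 0.0378, Mrps22 0.0275 and Mrps18b 0.00928. With the offset and then with the block and the offset, Mrps10 had 0.156 and 0.179, Mrps22 0.0543 and 0.101, Mrps18b 0.187 and 0.192, Mrps18c 0.13 and 0.264, and Mrps36 0.0145 and 0.143. With the block and the offset alone, Mrps21 had 0.0787, Mrpl2 0.00435, Mrps18a 0.0172 and Mrpl52 0.145. With 1 library left out the ranges were -0.694 to 0.0401 for Mrpl48, -0.374 to 0.153 for Mrps10, -0.296 to 0.0158 for Mrpl10, -0.853 to 0.0179 for Mrpl11, -0.192 to 0.234 for Mrpl1, -0.691 to 0.066 for Mrpl2, -0.182 to 0.109 for Mrpl3, -0.434 to 0.00687 for Mrpl44, -0.351 to 0.0153 for Mrpl45, -0.612 to 0.014 for Mrps7, -0.0998 to 0.0177 for Mrps2, -0.893 to 0.00391 for Mrps16, -0.241 to 0.152 for Mrps22, -0.739 to 0.0294 for Mrps18a, -0.191 to 0.0209 for Mrps18b, -0.641 to 0.25 for Mrps18c, -0.568 to 0.0751 for Mrps30, -0.704 to 0.154 for Mrps36, -1.01 to 0.051 for Mrpl52 and -0.205 to 0.119 for Mrpl50.

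Control 1 limits every statement on rPTH, and with 3 libraries a group a change within the spread of the controls was not detectable.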

Other observations

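Processed pseudogenes copy many of these transcripts, and some took a large share of counts. Of the 78 members, 18 had an annotated pseudogene at 95% identity or more over at least 200 bases of their transcript, and for 14 of them a copy was in the count table. Mrpl23-ps1 matches Mrpl23, a large-subunit protein at the tunnel exit, at 100% over 540 bases. It had 1493, 675 and 578 counts in the controls and 652, 891 and 861 with rPTH, while Mrpl23 had 1588, 778 and 658 against 751, 990 and 984, so the copy carried 89.6% of the counts of its parent. The values rose and fell together library by library. For Mrps33 and its copy Gm5776 the share was 53.2%, and for Mrps36 the copies Mrps36-ps1 and Mrps36-ps2 reached 32% and 37.8%. It was 25.9% for Mrps21 and its copy Gm6181, and 25.8% for Mrpl48 and Mrpl48-ps. Mrps10 has a copy at 97.9% identity that is not in the count table. These genes were picked after their values were seen. Their levels are uncertain, since the sources used here do not say how reads matching both were counted.

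Mrps18b differed from most members in its low ratio of control 1, and its copy did not share this. Gm13552, which matches Mrps18b at 99.8% over 417 bases, had 37.3, 15.3 and 16.9 CPM in the controls and 18.1, 16.2 and 16.7 CPM with rPTH, a control 1 ratio of 2.24 where Mrps18b had 1.35. For the 2 summed, the level was 70.1, 40.3 and 40.1 CPM in the controls and 44.8, 40.6 and 39.7 CPM with rPTH, a ratio of 1.74. Both were named after their values were seen, and the part of shared reads in the low ratio was not tested.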
